A study of Rattus norvegicus with 16 samples.

Results

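The genes described here are the collagen genes of the rat heart, compared between 2-day-old pups of a strain with inherited cardiac hypertrophy and pups of its control strain. A probe set, the group of probes that reads one transcript, was counted as a collagen gene if the platform's annotation gave it exactly 1 gene symbol made of Col, a number, the letter a and a second number. This rule found 27 probe sets for 25 genes among the 14324 genes named on the array, and each gene was read from its brightest probe set, the one with the highest mean over all 16 arrays. Only Col6a4 had more than 1 probe set. The 25 genes comprise 10 fibrillar collagens, 3 chains of the basement membrane collagen type IV and 12 others. A further 19 collagen symbols of the rat RefSeq annotation, among them Col4a2, Col4a5, Col6a1, Col6a2, Col6a3, Col15a1 and Col18a1, had no probe set named for them and are not analysed here.

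RNA was measured on Affymetrix Rat Gene ST arrays, each hybridised with the heart RNA of 1 pup without pooling. Males and females of HHR and males and females of NHR made 4 groups of 4 arrays. HHR, the Hypertrophic Heart Rat, is labelled as having a hypertrophic heart, and NHR, the Normal Heart Rat, is its control strain with a normal heart; all pups were 2 days old and untreated as far as the labels go. The design text speaks of dissected ventricles and a growth protocol of the whole heart, and no litter is given, so litter and strain cannot be told apart. All 10 cardiomyocyte markers had means between 12.37 and 14.23 on the log2 scale, above the 90th percentile of all values (10.44). Array medians lay between 7.19 and 7.28. NHR female 3, NHR female 4 and NHR male 4, called the NHR arrays apart below, scored 14.4, 15.1 and 22.6 on the first principal component of the deviations from group means. The other NHR arrays scored -16.9 to 1.74 and the HHR arrays -3.72 to 7.48. NHR female 1, NHR female 2, NHR male 1 and NHR male 2 lay on the opposite side, at -16.9 to -11.1. Results are given with and without the NHR arrays apart. Leaving them out removes the high-scoring side of the NHR spread and keeps the low-scoring side. The values carry no background level, so a low value cannot be told from no signal, and precision is limited by having 4 arrays in a group.

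Collagens are built from 3 alpha chains wound into a triple helix. Fibrillar collagens, types I and III above all, form the fibres that give the myocardium its tensile strength and come mainly from cardiac fibroblasts, whereas type IV collagen forms the sheet-like network of the basement membrane around capillaries and muscle cells. After synthesis the chains are hydroxylated, folded with dedicated chaperones, secreted, trimmed at their ends and cross-linked.

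Strain differences in collagen transcripts were small and ran in both directions. Of the 25 genes, 1 rose in HHR hearts (Col1a2), 4 fell (Col4a1, Col5a3, Col11a1 and Col27a1) and 20 did not pass the test. The test was limma's, averaged over the sexes, with Benjamini-Hochberg adjustment over all 27342 probe sets and a threshold of 0.05. That is 20% of the members, against 20.7% of all probe sets (9.64% higher and 11.0% lower) and 23.1% of the brightest probe sets of named genes (11.8% higher and 11.2% lower). The share of collagens called was close to this background. The median difference of the members, HHR minus NHR, was -0.04 on the log2 scale, beside -0.03 over all probe sets. The differences ranged from -0.23 for Col4a1 to 0.20 for Col14a1, and no member that passed differed by 1.2-fold or more. Since tissue was measured in bulk, fewer cells of a type and less RNA per cell cannot be told apart. A sequence variant under the probes can also alter a probe set's signal between strains, which was not tested.

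**Figure D1:**
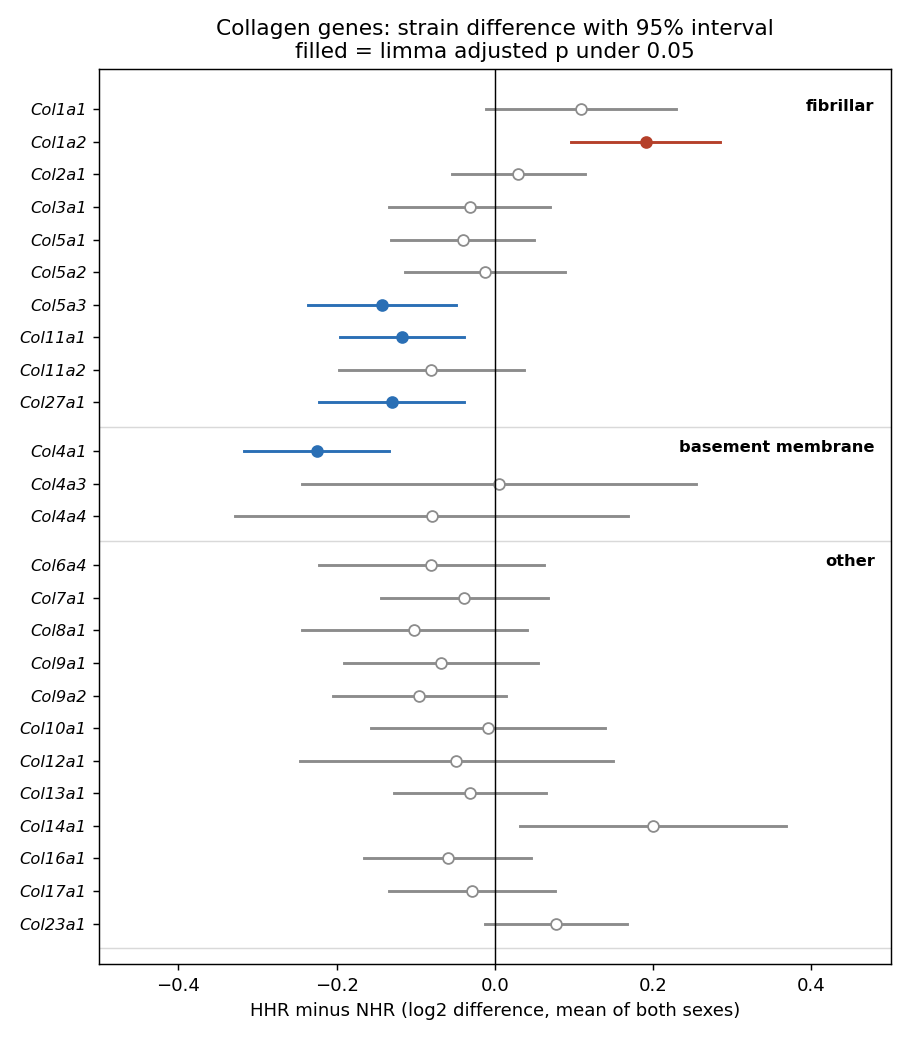
Differences between strains for the 25 collagen genes, grouped by class. Each point is the log2 difference HHR minus NHR averaged over the sexes, with its 95% interval from the limma fit (8 arrays per strain). Filled points passed the test: Col1a2 lies to the right of 0, and Col5a3, Col11a1, Col27a1 and Col4a1 lie to the left.

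Among the 10 fibrillar collagens, 1 rose, 3 fell and 6 did not pass, with a median difference of -0.04. That is 40% of the class, beside 20.7% of all probe sets (9.64% higher and 11.0% lower). The 3 that fell did not keep their calls under another scaling, as given below. Type I collagen, the bulk of cardiac fibres, is made of Col1a1 and Col1a2 chains. Col1a2 values ran from 11.39 to 11.60 with a median of 11.48 in HHR hearts, against 11.16 to 11.38 with a median of 11.31 in NHR hearts. Each of the 8 HHR arrays exceeded every NHR array, and it was the single member of 25 without overlap between the strains, beside 4.15% of all probe sets and 5.04% of the brightest ones of named genes. The difference was 0.19 (SE 0.04, limma adjusted p = 0.00579), or 1.14-fold higher in HHR. Without the NHR arrays apart it was 0.16 (adjusted p = 0.0386), the highest adjusted p over the 25 alternative fits tried. Its promoter is shown because Col1a2 was the collagen that rose, and the capitals mark the letters ATTGG, which are CCAAT on the opposite strand, and TATAAA (RefSeq, GRCr8, chr4:33518307-33518606, plus strand, 250 bases before to 50 after the annotated start).
Col1a2: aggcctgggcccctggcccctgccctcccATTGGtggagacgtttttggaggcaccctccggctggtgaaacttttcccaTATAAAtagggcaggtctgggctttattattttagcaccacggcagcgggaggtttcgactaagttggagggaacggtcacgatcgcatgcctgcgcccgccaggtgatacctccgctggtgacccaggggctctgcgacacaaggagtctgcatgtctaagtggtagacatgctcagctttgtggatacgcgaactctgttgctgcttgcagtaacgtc

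The ATTGG match began 221 bases and the TATAAA match 170 bases before the annotated start. Searched on both strands, CCAAT was present in 37.5% of 33469 promoter windows of this length and TATAAA in 14.2%. Among the 20 members with a window, 7 held CCAAT and 4 held TATAAA. A match describes letters only and is no evidence of a site in use.

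Col1a1 encodes the chain that makes up most of the type I molecule. Its values ran from 11.97 to 12.19 with a median of 12.04 in HHR hearts, against 11.70 to 12.06 with a median of 11.94 in NHR hearts. The strains overlapped, and 2 HHR arrays exceeded every NHR array. The difference of 0.11 (SE 0.06, limma adjusted p = 0.193) missed the threshold, and was 0.03 without the NHR arrays apart (adjusted p = 0.737). Col3a1, the chain of type III collagen, which shares fibres with type I, ran from 10.41 to 10.71 with a median of 10.59 in HHR hearts and from 10.45 to 10.75 with a median of 10.60 in NHR hearts. The strains covered nearly the same range, and the difference was -0.03 (95% interval -0.13 to 0.07, limma adjusted p = 0.696).

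The 3 fibrillar genes that fell belong to minor fibre collagens. Col5a3 is a chain of type V, a collagen that sits inside type I fibrils and helps set their width. It ran from 7.44 to 7.62 with a median of 7.50 in HHR hearts, against 7.53 to 7.78 with a median of 7.67 in NHR hearts (difference -0.14, SE 0.04, limma adjusted p = 0.0309). Col11a1, a chain of type XI, the counterpart of type V in cartilage, ran from 6.97 to 7.11 with a median of 7.07 in HHR hearts, against 7.08 to 7.24 with a median of 7.16 in NHR hearts (difference -0.12, SE 0.04, adjusted p = 0.0326). Col27a1, a fibrillar collagen known from cartilage, ran from 7.82 to 7.96 with a median of 7.86 in HHR hearts, against 7.88 to 8.14 with a median of 8.01 in NHR hearts (difference -0.13, SE 0.04, adjusted p = 0.0424). In each of these 3 genes 6 of 8 HHR arrays lay below the lowest NHR array. None of the 3 kept its call under another scaling of the arrays. With quantile, median-centred or cyclic loess values the limma adjusted p was between 0.0505 and 0.0649 for Col5a3, between 0.0965 and 0.146 for Col11a1 and between 0.0819 and 0.0945 for Col27a1, all still lower in HHR. Without the NHR arrays apart, Col27a1 passed (-0.15, adjusted p = 0.0481), whereas Col5a3 (-0.11, adjusted p = 0.145) and Col11a1 (-0.13, adjusted p = 0.0607) did not.

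**Figure D2:**
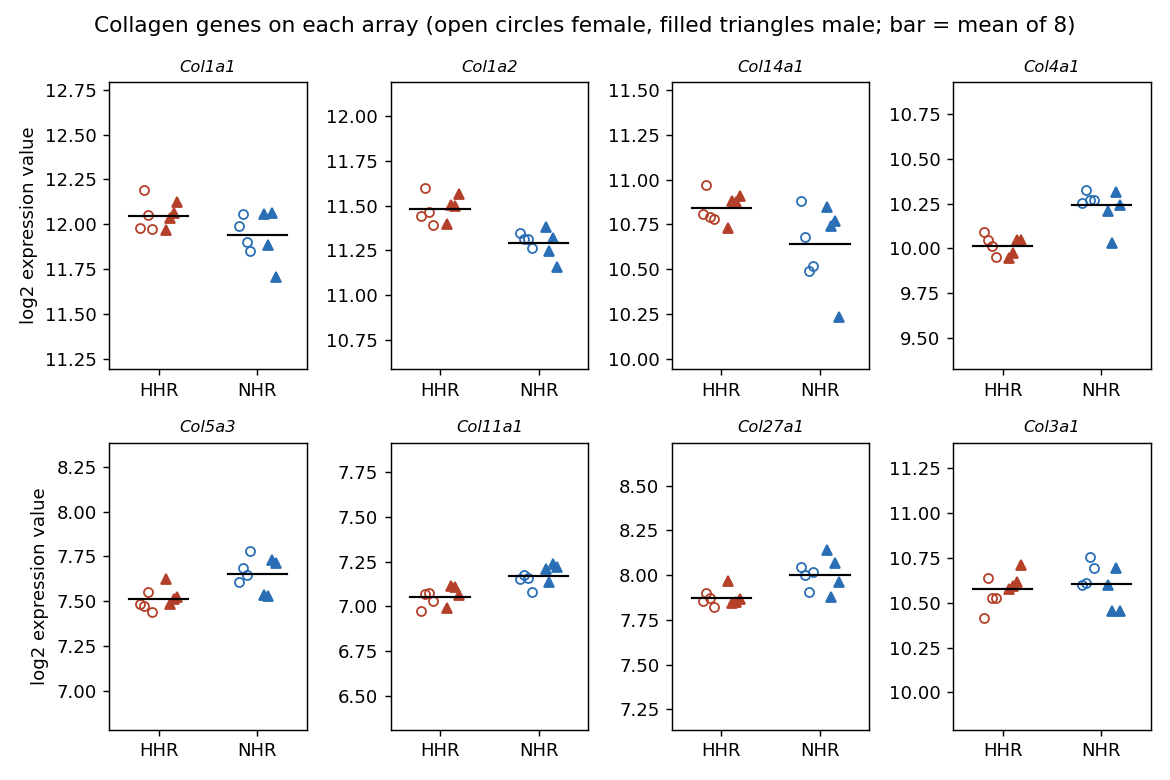
Log2 values of 8 collagen genes on every array, HHR on the left and NHR on the right, with open circles for females, filled triangles for males and a bar at the mean of the 8 arrays of a strain. Every panel spans the same number of log2 units. The strains separate fully for Col1a2 and largely for Col4a1, and they overlap for Col1a1, Col14a1 and Col3a1.

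The other fibrillar members did not pass. The main type V chains were close to 0, with -0.04 for Col5a1 (95% interval -0.13 to 0.05) and -0.01 for Col5a2 (-0.11 to 0.09; its sign turned after median centring, to 0.01). Col11a2, the second type XI chain, gave -0.08 (-0.20 to 0.04), and Col2a1, the main collagen of cartilage, 0.03 (-0.05 to 0.11). Of 9 measured markers of cartilage and bone 0 passed the limma test, beside 20.7% of all probe sets. At an unadjusted p under 0.05 there was 1, Sp7 (difference -0.10, limma adjusted p = 0.105). The mean log2 level of the 9 markers was 6.64 to 6.81 in HHR hearts and 6.66 to 6.81 in NHR hearts. The brightest of them averaged 7.37, near the array medians. Without background levels none of them can be called absent, and their part in the differences of Col11a1 and Col27a1 was not tested.

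Type IV collagen was represented by 3 chains, of which 1 fell, beside 11.0% of all probe sets lower. Col4a1 pairs with Col4a2 in the common type IV molecule of basement membranes. Its values ran from 9.95 to 10.09 with a median of 10.03 in HHR hearts, against 10.03 to 10.33 with a median of 10.26 in NHR hearts. Of the 8 HHR arrays 4 lay below the lowest NHR array, NHR male 2, and the other 4 lay below the remaining 7 NHR arrays. The difference was -0.23 (SE 0.04, limma adjusted p = 0.00169), or 1.17-fold lower in HHR, the smallest adjusted p of any collagen. It passed in all 25 alternative fits tried, with values from -0.26 to -0.20 and limma adjusted p from 2.7e-04 to 0.0108. The highest was without the NHR arrays apart. Endothelial cells are a main source of type IV collagen. Of 9 endothelial markers 6 fell and 1 rose, beside 11.0% of all probe sets lower and 9.64% higher. Without the NHR arrays apart 5 fell and 1 rose, beside 2150 lower and 1847 higher of all 27342 probe sets. The mean log2 level of those markers was 10.13 to 10.24 in HHR hearts and 10.22 to 10.38 in NHR hearts, and their part in the Col4a1 difference was not tested.

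Col4a1 and Col4a2 are transcribed in opposite directions from a shared promoter. In the rat RefSeq annotation 76 bases lie between both starts. They are in capitals in the window of Col4a1, which is shown because this gene had the clearest fall (RefSeq, GRCr8, chr16:84885347-84885646, plus strand).
Col4a1: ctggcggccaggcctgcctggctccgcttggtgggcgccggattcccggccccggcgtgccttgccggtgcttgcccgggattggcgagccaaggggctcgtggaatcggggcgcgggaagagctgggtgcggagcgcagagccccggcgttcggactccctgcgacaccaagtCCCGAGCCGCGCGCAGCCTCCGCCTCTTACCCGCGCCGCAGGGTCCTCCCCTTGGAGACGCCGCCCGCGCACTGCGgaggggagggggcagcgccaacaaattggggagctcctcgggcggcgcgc

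Within the capitals the letters CCGCCC, which are GGGCGG on the opposite strand, began 16 bases before the Col4a1 start. GGGCGG was present on either strand in 33.1% of all promoter windows and in 11 of the 20 members with a window. A CCAAT match on the opposite strand lay outside the capitals on each side.

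Col4a3 and Col4a4 encode chains of the type IV variant best known from the kidney and inner ear and form a second head-to-head pair. Col4a3 ran from 7.85 to 8.23 with a median of 8.09 in HHR hearts, and from 7.64 to 8.76 with a median of 8.06 in NHR hearts. Col4a4 ran from 7.41 to 7.81 with a median of 7.66 in HHR hearts, and from 7.40 to 8.46 with a median of 7.67 in NHR hearts. NHR male 4 was the highest array for both genes, and the differences of 0.01 (SE 0.12, limma adjusted p = 0.981) and -0.08 (SE 0.12, adjusted p = 0.685) missed the threshold. When the NHR arrays apart were left out both were positive, at 0.17 (adjusted p = 0.166) and 0.10 (adjusted p = 0.344). The RefSeq starts of this pair lie 412 bases apart, and the window of Col4a3 is shown with the 88 bases it shares with the Col4a4 window in capitals (RefSeq, GRCr8, chr9:91323740-91324039, plus strand).
Col4a3: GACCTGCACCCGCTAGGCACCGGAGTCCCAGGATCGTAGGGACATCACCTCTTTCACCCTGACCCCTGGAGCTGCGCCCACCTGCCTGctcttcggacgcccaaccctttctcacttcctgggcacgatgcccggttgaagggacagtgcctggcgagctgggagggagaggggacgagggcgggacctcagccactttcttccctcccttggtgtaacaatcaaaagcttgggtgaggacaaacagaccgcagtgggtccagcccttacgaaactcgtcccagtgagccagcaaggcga

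None of the 12 other collagens passed the test, beside 20.7% of all probe sets. At an unadjusted p under 0.05, 1 of the 12 did, Col14a1, which encodes a fibril-associated collagen that decorates the surface of type I fibres. It ran from 10.73 to 10.97 with a median of 10.84 in HHR hearts, against 10.23 to 10.88 with a median of 10.71 in NHR hearts, and 3 HHR arrays exceeded every NHR array. The difference was 0.20 (SE 0.08, limma adjusted p = 0.0866), with the lowest values in the NHR arrays apart, without which it was 0.06 (adjusted p = 0.503). Without NHR female 1 it was 0.24 and passed (adjusted p = 0.0360). The remaining fibril-associated collagens gave -0.10 for Col9a2 (95% interval -0.20 to 0.01), -0.07 for Col9a1 (-0.19 to 0.05), -0.06 for Col16a1 (-0.17 to 0.05) and -0.05 for Col12a1 (-0.25 to 0.15). The transmembrane collagens Col13a1 (-0.03) and Col17a1 (-0.03) were near 0, and Col23a1, of the same kind, gave 0.08 (-0.01 to 0.17). The network collagens Col8a1 (-0.10), made by vessel walls, and Col10a1 (-0.01), typical of growth plate cartilage, the anchoring fibril collagen Col7a1 (-0.04) and the type VI chain Col6a4 (-0.08) did not pass either. The 95% intervals of 18 of the 20 members that did not pass lay within 1.2-fold in either direction, and all 20 lay within 1.5-fold.

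With all arrays, the SD over the 8 arrays of a strain was larger in NHR for 22 of 25 members (88%), against 70.1% of all probe sets. The median SD of the members was 0.07 in HHR and 0.11 in NHR hearts, beside 0.10 and 0.13 over all probe sets. Over the 5 NHR arrays left without the NHR arrays apart, the SD was larger in NHR for 17 of 25 members (68%), against 52.9% of all probe sets, and the members' median SD in NHR was 0.10. The spreads were not tested against each other.

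The strain difference was also tested within each sex. In males 0 of 25 members passed the adjusted test, beside 4.02% of all probe sets. At an unadjusted limma p under 0.05 there were 4. No share of all probe sets at that cut is given here, for these or the other unadjusted counts. In females 1 of 25 passed, beside 12.0% of all probe sets, with Col4a1 averaging 10.03 ± 0.06 in HHR females and 10.28 ± 0.03 in NHR females (SD, n = 4; difference -0.26, limma adjusted p = 0.0128). Without the NHR arrays apart, which leaves 2 NHR females, the difference was again -0.26 but no longer passed (limma adjusted p = 0.0697). In males Col4a1 averaged 10.00 ± 0.05 in HHR and 10.20 ± 0.12 in NHR (SD, n = 4; difference -0.19, limma adjusted p = 0.0854). For Col1a2 the difference was 0.21 in males (limma adjusted p = 0.0651) and 0.17 in females (limma adjusted p = 0.0953). The sign was the same in both sexes for 21 of the 25 members.

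Whether the strain difference itself differed between males and females was tested as an interaction, and 0 of 25 members passed, as did 0.00% of all probe sets. The smallest limma adjusted p among the members was 0.969, for Col3a1 (interaction 0.21). It was also the 1 member with an unadjusted p under 0.05 in the limma fit. Its difference was 0.07 in males and -0.14 in females. No member differed between males and females averaged over the strains, beside 0.0110% of all probe sets. At an unadjusted p under 0.05 there was 1, Col23a1 (male minus female 0.09, limma adjusted p = 0.778).

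**Figure D3:**
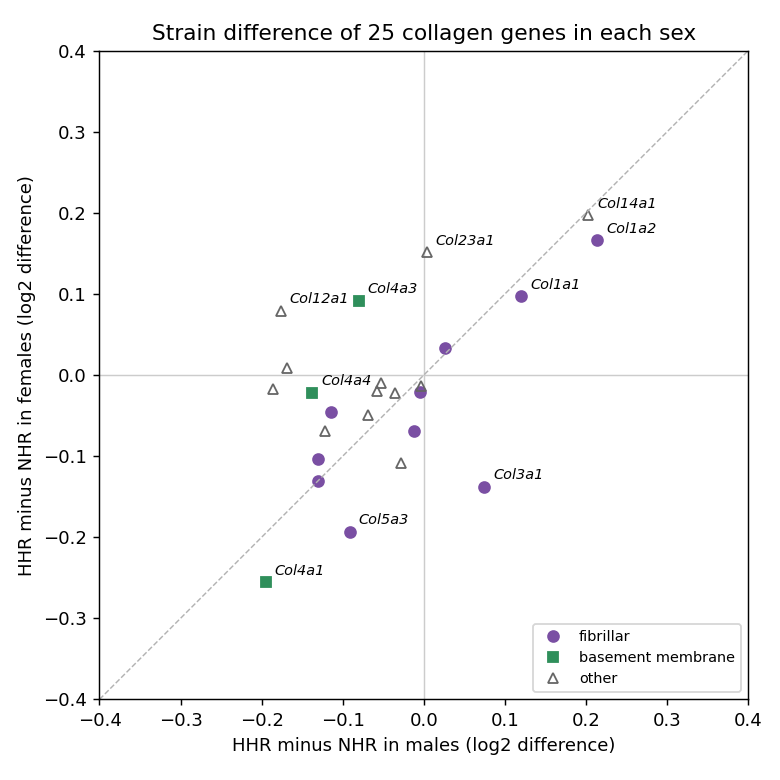
Log2 difference HHR minus NHR of each of the 25 collagen genes in males (horizontal) and in females (vertical), with a marker for each class and a dashed line where both sexes are equal. Col1a2, Col1a1 and Col14a1 lie at the upper right and Col4a1 at the lower left, that is, on the same side in both sexes, and Col3a1 is positive in males and negative in females.

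Chains that assemble into the same molecule were compared across animals within each strain, with 4 relations tested by an exact two-sided permutation test of the pairings and adjusted over the 4. Col1a1 and Col1a2 moved together, with Pearson's r = 0.96 in HHR hearts (n = 8, exact permutation p = 3.97e-04, adjusted 7.94e-04; Spearman's rho 0.90, exact p = 0.00456, adjusted 0.0145). In NHR hearts r was 0.89 (n = 8, exact permutation p = 0.00461, adjusted 0.00615; rho 0.71, exact p = 0.0576, adjusted 0.0768). Without the 2 arrays farthest from the median of Col1a1, r was 0.88 in HHR (exact permutation p = 0.0389) and 0.79 in NHR (exact permutation p = 0.0722), and without NHR male 4 alone r was 0.73 in NHR (n = 7, exact permutation p = 0.0683, adjusted 0.0910). Without NHR male 3 alone r was 0.91 (n = 7, exact permutation p = 0.00556, adjusted 0.00741), so the call in NHR, though not the positive sign, depended on NHR male 4. The type V chains Col5a1 and Col5a2 gave r = 0.96 in HHR hearts (n = 8, exact permutation p = 2.98e-04, adjusted 7.94e-04; rho 0.88, exact p = 0.00724, adjusted 0.0145), and 0.95 without the 2 farthest arrays (exact permutation p = 0.0167). In NHR hearts they gave r = 0.37 (n = 8, exact permutation p = 0.403, adjusted 0.403; rho 0.45, exact p = 0.267, adjusted 0.267; 0.48 without the 2 farthest, exact p = 0.354). Whether the strains differ in this relation was not tested.

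The pair Col4a3 and Col4a4 was added after the values were seen. Adjusted over 6 relations, r was 0.90 in HHR hearts (n = 8, exact permutation p = 3.47e-04, adjusted 7.94e-04; rho 0.95, exact p = 0.00114, adjusted 0.00685) and 0.92 in NHR hearts (n = 8, exact permutation p = 0.00303, adjusted 0.00454; rho 0.79, exact p = 0.0279, adjusted 0.0419). Without the 2 arrays farthest from the median of Col4a3, r was 0.86 in HHR (exact permutation p = 0.0417) and 0.69 in NHR (exact permutation p = 0.124). The arrays left out in NHR were NHR male 2 and NHR male 4, and 6 remained. For scale, the median r over the 300 pairs of members was 0.05 in HHR and 0.33 in NHR, and among those pairs Col1a1 with Col1a2 ranked 2 in HHR and 8 in NHR. Col5a1 with Col5a2 ranked 3 in HHR and 143 in NHR, and Col4a3 with Col4a4 ranked 4 in HHR and 3 in NHR. The highest pair was Col1a2 with Col14a1 in HHR (r = 0.96) and Col7a1 with Col17a1 in NHR (r = 0.99). All these arrays share their normalization, and the pairs share genes, so these ranks are a description.

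**Figure D4:**
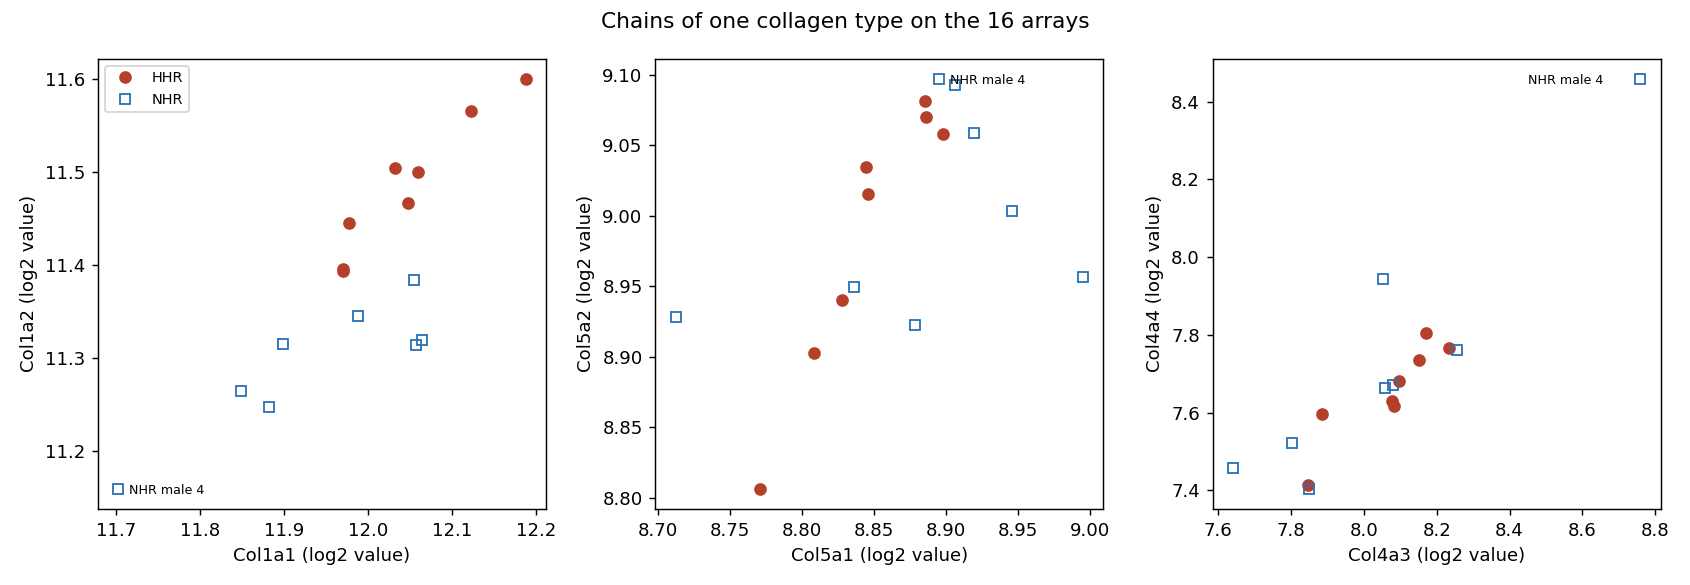
Log2 values of partner chains on the 16 arrays, with filled circles for HHR and open squares for NHR. Col1a2 rises with Col1a1 within each strain, and at like Col1a1 values the HHR arrays sit above the NHR arrays. Col4a4 rises with Col4a3, with NHR male 4 far from the rest in the third panel and lowest in the first.

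Among genes that make, fold and cross-link collagen, more rose than fell. Of 34 listed biosynthesis genes 30 were measured, of which 9 rose, 2 fell and 19 did not pass, beside 9.64% of all probe sets higher and 11.0% lower. The median difference of the list was 0.09, beside -0.03 over all probe sets. Without the NHR arrays apart 5 rose and 2 fell, beside 1847 higher and 2150 lower of all 27342 probe sets. The largest rise was in P4ha3, a catalytic subunit of prolyl 4-hydroxylase, which stabilises the triple helix. It averaged 8.99 ± 0.15 in HHR and 8.28 ± 0.39 in NHR hearts (SD, n = 8; difference 0.71, SE 0.13, limma adjusted p = 0.00126), with 7 of 8 HHR arrays beyond the NHR range, and 0.44 without the NHR arrays apart (adjusted p = 0.00339). Crtap, a member of the prolyl 3-hydroxylation complex, averaged 10.33 ± 0.10 in HHR and 9.82 ± 0.28 in NHR hearts (SD, n = 8; difference 0.50, SE 0.10, limma adjusted p = 0.00177), and 0.32 without the NHR arrays apart (adjusted p = 0.00544). Loxl2, a lysyl oxidase that cross-links collagen, rose by 0.21 (SE 0.05, limma adjusted p = 0.00378).

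The gene with the clearest fall in the list was Serpinh1, which encodes HSP47, the chaperone of procollagen in the endoplasmic reticulum. It averaged 12.02 ± 0.15 in HHR and 12.33 ± 0.06 in NHR hearts (SD, n = 8; difference -0.31, SE 0.06, limma adjusted p = 0.00149). All 8 HHR arrays lay below the lowest NHR array. The strains did not overlap in 4.15% of all probe sets and 5.04% of the brightest ones of named genes. The other 7 members that passed are named after their values were seen. P3h2, a prolyl 3-hydroxylase (0.28), Loxl4 (0.21) and Lox (0.20), both lysyl oxidases, Ppib, which partners Crtap (0.21), Adamts2, which removes the amino-terminal propeptide (0.19), and Plod2, a lysyl hydroxylase (0.15), rose. Bmp1, which removes the carboxy-terminal propeptide, fell by 0.15 (limma adjusted p = 0.0220). Lox was near the threshold (limma adjusted p = 0.0496) and lost its call in 17 of 25 alternative fits, with an adjusted p of 0.0581 with the replicate number as a block, 0.0827 after quantile normalization and 0.0617 after cyclic loess. Plod2 lost its call in 10 of the 25. Without the NHR arrays apart, Ppib (0.11, adjusted p = 0.144), Adamts2 (0.19, adjusted p = 0.0757), Plod2 (0.09, adjusted p = 0.202) and Lox (0.19, adjusted p = 0.158) no longer passed.

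**Figure D5:**
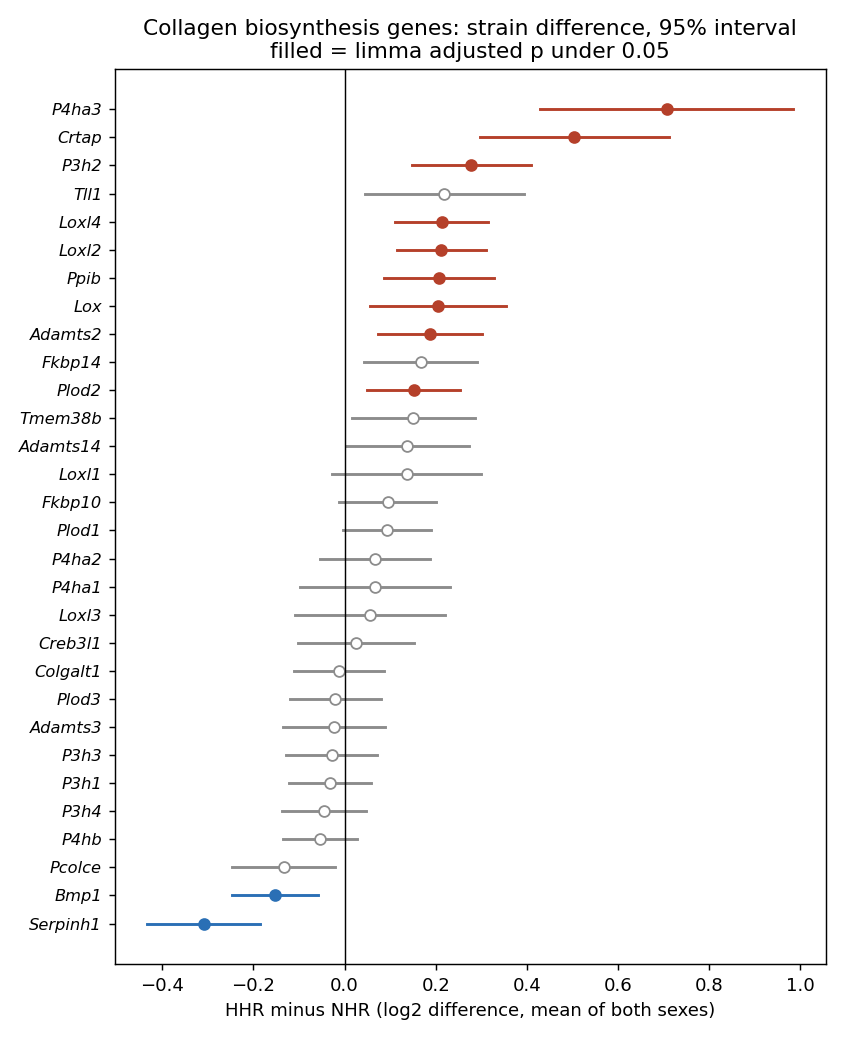
Differences between strains for the 30 measured genes of collagen synthesis, folding, trimming and cross-linking, as log2 difference HHR minus NHR with its 95% interval (limma, 8 arrays per strain). P4ha3 and Crtap lie farthest to the right and Serpinh1 farthest to the left, and filled points are the 9 higher and 2 lower genes that passed.

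Transcripts of proteins that bind collagen fibres mostly did not pass, and those that did were higher in HHR hearts. Of 10 measured fibril-binding genes 3 rose and 0 fell (median 0.08), beside 9.64% of all probe sets higher and 11.0% lower. Prelp, a leucine-rich proteoglycan that links collagen to basement membranes, averaged 9.24 ± 0.16 in HHR and 8.70 ± 0.16 in NHR hearts (SD, n = 8; difference 0.55, SE 0.08, limma adjusted p = 1.34e-04). Its NHR values ended below the lowest of the 8 HHR values, beside 4.15% of all probe sets without overlap between the strains. Aspn, asporin, rose by 0.39 (SE 0.08, limma adjusted p = 0.00246) and Bgn, biglycan, by 0.21 (adjusted p = 0.0476). Bgn lost its call in 15 of 25 alternative fits, among them quantile normalization (0.13, adjusted p = 0.208), cyclic loess (0.15, adjusted p = 0.131) and leaving out the NHR arrays apart (0.10, adjusted p = 0.351). Of 9 measured collagen receptor genes 0 passed limma's adjusted test, beside 20.7% of all probe sets. At an unadjusted p under 0.05 there was 1, Itgb1. The integrin beta 1 gene Itgb1 gave 0.10 (adjusted p = 0.121) and the discoidin receptor Ddr2 0.09 (adjusted p = 0.267).

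Among 11 collagenases and their inhibitors 2 rose and 0 fell, with a median of -0.00, beside 9.64% of all probe sets higher and 11.0% lower. The share called was close to the 20.7% over all probe sets. Timp2, which inhibits matrix metalloproteinases, rose by 0.32 (limma adjusted p = 0.00175), and Mmp2, the gelatinase of cardiac fibroblasts, averaged 11.74 ± 0.13 in HHR and 11.55 ± 0.07 in NHR hearts (SD, n = 8; difference 0.19, SE 0.06, limma adjusted p = 0.0199). Mmp2 missed the threshold after quantile normalization or cyclic loess, where its adjusted p reached 0.118.

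Marker lists of other cell types were counted beside the same background, 9.64% of all probe sets higher and 11.0% lower. That background also shrank without the NHR arrays apart, from 2636 to 1847 higher and from 3015 to 2150 lower of all 27342 probe sets. Of 10 fibroblast markers 4 rose, 0 fell and 6 did not pass, with a median difference of 0.04. Tcf21 rose by 0.37, Dpt by 0.26, Pdgfra by 0.24 and Meox1 by 0.20, the 4 of the list with the smallest adjusted p. Without the NHR arrays apart 2 of the 10 rose, and Pdgfra (limma adjusted p = 0.123) and Meox1 (limma adjusted p = 0.0934) no longer passed. Their mean log2 level was 8.27 to 8.49 in HHR hearts and 8.18 to 8.38 in NHR hearts. Of 7 epicardial markers 3 rose and 0 fell, with levels of 7.74 to 8.00 in HHR and 7.36 to 7.80 in NHR hearts, and 2 rose without the NHR arrays apart. Of 9 mural markers 1 rose, 1 fell and 7 did not pass (median 0.01), with levels of 10.46 to 10.59 in HHR and 10.41 to 10.60 in NHR hearts, and 0 rose and 1 fell without the NHR arrays apart. Of the 10 cardiomyocyte markers 7 fell and 0 rose, with levels of 13.19 to 13.31 in HHR and 13.29 to 13.44 in NHR hearts, and 4 fell without the NHR arrays apart. Of 3 tendon and valve markers 0 passed limma's adjusted test and 1 had an unadjusted p under 0.05, with levels of 5.60 to 5.77 in HHR and 5.68 to 5.86 in NHR hearts. The part of these cell types in the Col1a2, P4ha3 and Crtap differences was not tested.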

How the data were processed

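The authors deposited log2 expression values of 27342 probe sets on 16 arrays, made with RMA, which corrects background, normalizes between arrays and summarises probes, per the submitters' processing notes; its version, the probe annotation and filters are not given in the sources used here. Group and replicate number came from the sample titles. Names came from the annotation of the platform, where 15097 probe sets had 1 symbol, 323 several and 11922 none. All 25 collagen symbols matched RefSeq (assembly GRCr8) by gene ID.

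A mean per group was fitted to all 16 arrays with limma 3.58.1 in R 4.3.3, with empirical Bayes moderation, Benjamini-Hochberg adjustment over all probe sets and a threshold of 0.05, for 5 comparisons: strain, strain within males, strain within females, their interaction, and sex. SE is the moderated standard error. The scripts were tested on simulated data. P-values measure the spread between these pups. Correlations were tested in Python 3.11.15 with adjustment over 4 relations; pairs with Col4a2, Col6a1 or Col6a2, planned as well, have no named probe set.

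Members, classes, gene lists and the 3 NHR arrays to leave out were chosen with earlier results of these data known. Values were given for members that passed, for Col1a1, Col1a2, Col3a1 and Col4a1, and for up to 4 genes of each other list by adjusted p. Alternatives were quantile normalization, median centring, cyclic loess, a filter against dim signal (values over the 40th percentile required on 4 or more arrays), single-gene probe sets, trended and robust moderation, array weights, a replicate block, each array left out, the NHR arrays apart left out, a threshold of 0.01 and a minimum of 1.2-fold. The spread and the differences within each sex without the NHR arrays apart were added after the data were seen.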

Additional observations from a re-analysis of the deposited data

Results flagged for a closer look

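In 3 of the 100 gene and group combinations examined (25 collagens in 4 groups of 4 arrays), 1 array stood far from the other 3 by Dixon's test; chance flags about 1 in 20 groups. Col14a1 was highest in HHR female 2 at 10.97, with the other HHR females at 10.78 to 10.81, and lowest in HHR male 1 at 10.73, with the other HHR males at 10.88 to 10.91. Col23a1 was lowest in NHR male 4 at 7.49, with the other NHR males at 7.56 to 7.57. No collagen gene had a strain effect that differed between the sexes by the interaction test.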

How the results depend on the processing

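The direction and call of Col1a2 and Col4a1 held at the 0.05 threshold in all 25 refits (other scalings, filters, moderation, weights, the block, and arrays left out), though neither reached a minimum of 1.2-fold. The count of 5 collagens past the strain test became 2 (Col1a2 and Col4a1) under each of the 3 other scalings (quantile, median centring, cyclic loess) or at a threshold of 0.01, 3 without the NHR arrays apart and 0 with a minimum of 1.2-fold. Over all 27342 probe sets, 5387, 5229 and 5445 passed under those 3 scalings and 3997 without the NHR arrays apart, against 5651 in the main fit. With 1 array left out, 4651 to 6402 of all probe sets passed. Leaving out 1 array gave counts of 2 to 5: 2 without HHR female 1, HHR female 4, HHR male 4 or NHR male 3, and 3 without HHR female 2, HHR male 2, HHR male 3, NHR female 2, NHR female 4, NHR male 1 or NHR male 4. Within males the count of 0 became 1 with the dim filter or with trended and robust moderation (Col1a2) and with array weights (Col4a1), and 0 to 2 without 1 array, with 2 without NHR male 2. Within females the count of 1 became 2 after quantile normalization, cyclic loess, the dim filter, single-gene probe sets or array weights, and 0 without the NHR arrays apart, at a threshold of 0.01 or with a minimum of 1.2-fold; without 1 array it was 1 to 2, with 2 without NHR female 1, NHR male 2 or NHR male 4. Interaction and sex stayed at 0 in every alternative run, also without 1 array. With the added pair the partner chain relations past the threshold were 5 in place of 3, and without 1 array 2 to 3, with 2 without NHR male 4; without the NHR arrays apart they were not run in NHR, where 5 arrays remain.

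Signs turned only for members that did not pass: Col4a4 to 0.103, Col5a2 to 0.0205 and Col12a1 to 0.0513 without the NHR arrays apart, Col5a2 to 0.0101 after median centring and 0.0024 with array weights, Col10a1 to 0.0208, 0.0141 and 0.0261 after quantile normalization, median centring and cyclic loess and to 0.0285 without the NHR arrays apart, and Col13a1 to 0.0030 and Col17a1 to 0.0059 after cyclic loess. The tendon marker Tnmd turned to 0.0156 after quantile normalization and 0.0102 after cyclic loess. Without 1 array, signs also turned within ranges of -0.0669 to 0.119 for Col4a3, -0.136 to 0.0392 for Col4a4, -0.0289 to 0.0131 for Col5a2, -0.0493 to 0.0370 for Col10a1 and -0.113 to 0.0040 for Col12a1. The cause of these changes was not tested. Same-numbered arrays of different groups deviated together in 11 of 24 pairs (r over 0.1). The median r of such pairs was 0.09, against -0.03 for pairs with different numbers. Of 16 arrays 9 correlated best with an array of their own number, so the numbers may carry shared variation. The labels do not say what the numbers stand for, and the main fit has no block for them. With the replicate block 6145 of all probe sets passed the strain test, against 5651 in the main fit. The collagen strain count was then 5, with values of 0 in males, 1 in females, 0 for the interaction and 0 for sex. Among the other genes named Lox lost its call (limma adjusted p = 0.0581). No background level was recorded, which limits what can be said of dim genes.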
